A study of Mus musculus with 6 samples.

Results

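The genes of cholesterol synthesis and of cholesterol efflux were compared between P14 CD8+ T cells that had entered a tumor and P14 cells of the spleen. The 31 genes were taken by symbol from the 55335 gene identifiers of the count table, and all 31 were found and passed the filter on low counts. The rule names genes by function and uses no measured value, although it was set with earlier results of these data known. The 17 synthesis enzymes were set beside 6 genes of the LXR receptors and efflux, 3 genes of SREBP2 control, 3 of sterol transport and 2 of ester storage.

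P14 cells are CD8+ T cells whose transgenic receptor recognizes the GP33-41 epitope. They were transferred into C57BL/6 mice on day 11 after implantation of B16-GP33-41 melanoma cells, which carry that epitope, and were later sorted from tumor (3 libraries) and from spleen (3 libraries). The labels give strain C57BL/6, an age of 10 weeks and the P14 TCR transgenic genotype for both tissues, so every library came from transferred antigen-specific cells of tumor-bearing mice, and none from an untreated or tumor-free mouse. Tumor leukocytes went through Percoll before sorting and spleen cells are not said to have done so, and the codes in the library descriptions end in 1 number for all tumor libraries and in another for all spleen libraries. Effects of tissue, preparation and any batch behind those codes cannot be told apart. The labels do not tie a library to a mouse of its own, and the p-values below therefore describe the spread among these 6 libraries, which may be technical.

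Animal cells build cholesterol from acetyl-CoA. The mevalonate pathway first makes prenyl diphosphates, which are joined to squalene, closed to lanosterol and trimmed in further steps to cholesterol. When sterol in the endoplasmic reticulum is low, the protein Scap escorts the membrane-bound factor SREBP2 to the Golgi, where proteases free it to switch on the synthesis genes, while Insig proteins hold the complex back when sterol is plentiful. Oxysterols, formed when sterol is plentiful, activate the nuclear receptors LXR-alpha and LXR-beta, which switch on exporters such as Abca1 and Abcg1. T cells raise sterol synthesis and lower LXR signalling when they are activated and divide, since new membrane needs cholesterol.

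The start regions of 5 of these genes are shown so that genes among the largest rises and falls can be read side by side with the letters searched in them. RefSeq promoters (build GRCm38.p6, 250 bases before to 50 after each start) were matched for 25 of the 31 members. Each line gives the 250 bases before the RefSeq start, 5′ to 3′ on the strand of the gene. RefSeq starts can differ from those of the gene positions given below, which come from GENCODE. The Idi1 and Cyp51 stretches therefore reach into the gene positions given for them. Capitals mark CCAAT on either strand, the box bound by the factor NF-Y, and TCACNCCAC on either strand, a core of the sterol regulatory element bound by SREBP2. Hmgcs1 was shown as the member that held this core. Cyp51 and Idi1 had the largest rises among synthesis enzymes in the promoter table, and Abca1 and Mylip the largest falls among LXR and efflux genes that have a single promoter there.
Hmgcs1 (chr13:119690101-119690350, plus strand): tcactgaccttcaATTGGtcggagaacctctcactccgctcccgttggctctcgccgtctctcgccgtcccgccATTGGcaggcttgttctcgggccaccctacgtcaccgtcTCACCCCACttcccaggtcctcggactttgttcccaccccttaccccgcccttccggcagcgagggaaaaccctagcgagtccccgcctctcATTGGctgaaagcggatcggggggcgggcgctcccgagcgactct
Cyp51 (chr5:4104698-4104947, minus strand): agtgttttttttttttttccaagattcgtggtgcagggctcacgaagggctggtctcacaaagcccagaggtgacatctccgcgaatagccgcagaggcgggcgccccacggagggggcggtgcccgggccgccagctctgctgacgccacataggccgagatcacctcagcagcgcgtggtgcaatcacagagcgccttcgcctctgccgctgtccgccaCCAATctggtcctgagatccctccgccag
Idi1 (chr13:8885356-8885605, plus strand): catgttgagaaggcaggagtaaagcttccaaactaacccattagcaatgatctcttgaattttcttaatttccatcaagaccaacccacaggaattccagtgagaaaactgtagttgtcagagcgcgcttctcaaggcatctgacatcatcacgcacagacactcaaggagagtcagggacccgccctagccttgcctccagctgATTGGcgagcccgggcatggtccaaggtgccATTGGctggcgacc
Abca1 (chr4:53159896-53160145, minus strand): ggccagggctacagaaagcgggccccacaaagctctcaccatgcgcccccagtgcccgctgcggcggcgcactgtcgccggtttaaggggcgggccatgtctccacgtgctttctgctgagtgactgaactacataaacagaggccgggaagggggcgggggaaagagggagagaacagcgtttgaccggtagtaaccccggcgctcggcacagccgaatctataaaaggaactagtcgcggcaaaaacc
Mylip (chr13:45389492-45389741, plus strand): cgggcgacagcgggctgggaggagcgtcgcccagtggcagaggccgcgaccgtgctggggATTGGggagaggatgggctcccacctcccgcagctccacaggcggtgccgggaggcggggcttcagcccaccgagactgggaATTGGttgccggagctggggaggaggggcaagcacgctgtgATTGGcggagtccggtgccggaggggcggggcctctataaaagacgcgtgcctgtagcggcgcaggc

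The sterol element core was found in 1 of 14 synthesis enzymes with a promoter in the table, Hmgcs1, where it began 137 bases before the start, and in 1.44% of all 27025 genes of that table. CCAAT was found in 14 of 14 synthesis enzymes and in 1 of 5 LXR and efflux genes, Mylip, beside 41.1% of all genes. The GC box GGGCGG, bound by SP1, was found in 13 of 14 synthesis enzymes, in 2 of 5 LXR and efflux genes and in 38.2% of all genes. Among members that were lower in tumor, Mvd and Npc2 held 2 CCAAT boxes each, Mylip 3 and Nceh1 1. A match is a description of letters in this window, and the elements of other members may differ from these letters or lie outside it.

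Total counts per library ranged from 35095261 to 38263483. Levels are given as CPM, the count of a gene per 1000000 counts of its library, and a count of 0 allows up to 3 counts, at most 0.0855 CPM, as a limit on counting error only. Of 19783 genes tested with edgeR, 34.8% were higher and 35.9% lower in tumor at an adjusted p below 0.05, so a call by itself is common in this comparison. A stricter call asked for a change beyond 1.5-fold, which 14.9% of genes passed as higher and 17.5% as lower. The sorted cells carried T cell transcripts in both tissues, with the 10 T cell markers summing to 4270 to 4451 CPM in tumor and 4922 to 4986 CPM in spleen. Markers of several other cell types differed sharply. The 10 B cell markers summed to 10.7 to 12.8 CPM in tumor and 548 to 565 CPM in spleen, with all 10 lower in tumor and Cr2 at 0 there. The 15 macrophage and monocyte markers summed to 31.6 to 32.5 CPM in tumor and 278 to 290 CPM in spleen, with all 15 lower, and the 8 neutrophil markers to 0.47 to 0.85 and 25.7 to 29.6 CPM, with Ngp, Camp and Elane at 0 in tumor. All 10 dendritic cell and MHC class II genes were lower in tumor too (81.4 to 88.0 against 1785 to 1825 CPM, Siglech and Clec9a at 0 in tumor). Further lists differed less. The NK cell markers summed to 19.8 CPM in tumor and 25.2 CPM in spleen on average, with 2 of 5 higher and 1 lower. Erythroid and platelet markers summed to 263 and 222 CPM, with 5 of 10 higher and 5 lower. Fibroblast and endothelial markers summed to 55.4 and 87.7 CPM, mostly Pecam1 (54.8 and 86.2 CPM). The 8 melanoma markers summed to 21.6 to 23.1 CPM in tumor and 32.9 to 33.6 CPM in spleen, sums carried mostly by Gpnmb (12.2 CPM in tumor) and Pmel (19.8 CPM in spleen). The pigment cell genes of that list did not move together, and they were named after their values were seen. Pmel was lower in tumor by 2.27-fold (adjusted p = 4.8e-07) and passed 1.5-fold. Mitf did not pass (adjusted p = 0.13), and Tyr and Sox10, with few counts, overlapped between tissues and were not tested. Dct, Tyrp1 and Mlana had more counts in tumor, all of them low, and of these genes Dct was tested and passed. Dct had 16, 18 and 17 counts in the tumor libraries and 0, 1 and 0 in the spleen libraries, Tyrp1 had 31, 24 and 9 against 0 in all, and Mlana had 8, 6 and 5 against 0, 0 and 2. Their part in the results was not tested. In such bulk samples fewer cells of a type and less RNA per cell cannot be told apart.

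Of the 31 members, 12 were higher in tumor, 9 were lower and 10 did not pass, shares close to those of all genes. The groups differed in direction and size, without a test over either group. Among synthesis enzymes 9 of 17 rose and 1 fell, beside 34.8% and 35.9% of all genes, with a median log2 fold change of 0.22. Of the LXR and efflux genes 5 of 6 fell and 0 rose, with a median of -3.75. The median over all genes tested was -0.02. Beyond 1.5-fold, 4 of 17 synthesis enzymes were higher and 0 lower, and 5 of 6 LXR and efflux genes were lower. All genes gave 14.9% higher and 17.5% lower by that rule. Among these enzymes Hsd17b7 lost that call in 9 of 13 alternatives. Library values did not overlap between tissues for 11 members that were higher and 12 that were lower in tumor, where all genes gave 35.1% and 39.4%. Among synthesis enzymes 8 lay higher and 4 lower without overlap, and among LXR and efflux genes 0 and 5.

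**Figure D1:**
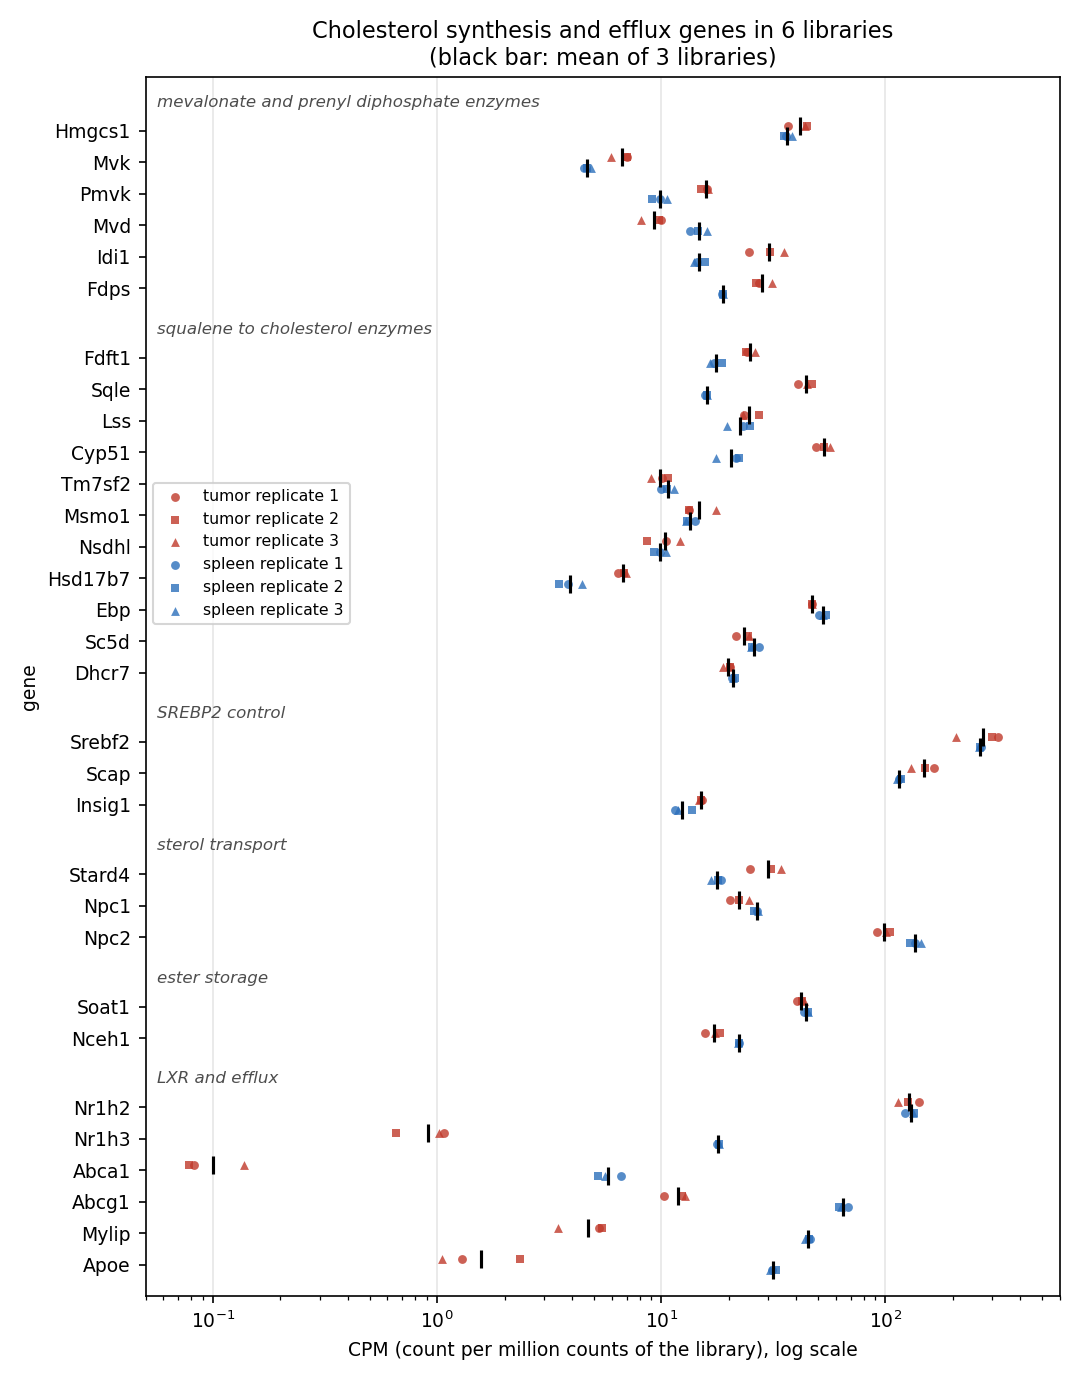
Level of each of the 31 genes in each library, in CPM on a log axis, with tumor libraries in red, spleen libraries in blue and the mean of 3 libraries as a black bar. Sqle, Cyp51 and Idi1 sit higher in tumor, and Nr1h3, Abca1, Abcg1, Mylip and Apoe sit far lower.

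The early enzymes, from acetoacetyl-CoA to prenyl diphosphates, were higher for 5 of 6 genes. Idi1 (chr13:8885501-8892451, mm10, plus strand), which isomerizes isopentenyl diphosphate, was at 24.6, 30.6 and 35.3 CPM in the tumor libraries and at 14.5, 15.7 and 13.96 CPM in the spleen libraries. All tumor values lay above all spleen values, although they spread more among themselves. The difference was 2.09-fold (log2 1.06, SE 0.11, adjusted p = 6.3e-06) and passed 1.5-fold. Pmvk, phosphomevalonate kinase, was at 16.0, 15.1 and 16.2 CPM in tumor and 9.90, 9.06 and 10.7 CPM in spleen (1.63-fold, adjusted p = 2.6e-05). Fdps, which makes farnesyl diphosphate, was at 27.4, 26.3 and 31.2 CPM against 18.7, 18.9 and 18.8 CPM (1.54-fold, adjusted p = 2.3e-05). The tissues did not overlap for either gene, and neither passed the test for more than 1.5-fold. Mvk, mevalonate kinase, was low in both tissues, at 5.94 to 7.06 CPM in tumor and 4.51 to 4.87 CPM in spleen (1.45-fold, adjusted p = 0.0015).

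Hmgcs1, which makes HMG-CoA at the entry of the pathway, differed little. It was at 36.9, 44.5 and 43.6 CPM in tumor and 36.2, 35.4 and 38.2 CPM in spleen, and tumor replicate 1 lay within the spleen range. The rise of 1.16-fold passed (log2 0.22, SE 0.08, adjusted p = 0.026) but was lost without tumor replicate 2 (adjusted p = 0.105) or spleen replicate 1 (adjusted p = 0.0905) or 2 (adjusted p = 0.102), and with upper-quartile scaling (adjusted p = 0.0767) or library totals (adjusted p = 0.0577). Mvd, which decarboxylates mevalonate diphosphate between Pmvk and Idi1, went the other way. Its values were 10.0, 9.75 and 8.12 CPM in tumor and 13.4, 14.6 and 16.0 CPM in spleen, with no overlap (1.55-fold lower, log2 -0.63, SE 0.11, adjusted p = 0.00033). It was the 1 synthesis enzyme that fell.

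The enzymes from squalene to cholesterol were higher for 4 of 11 genes, and 7 did not pass. Sqle (chr15:59315077-59331192, mm10, plus strand), squalene epoxidase, a rate-limiting step of the late pathway, had the largest rise of all members. It was at 40.8, 47.0 and 44.7 CPM in the tumor libraries and at 15.7, 16.0 and 16.1 CPM in the spleen libraries. The tissues were far apart beside the spread within each (2.83-fold, log2 1.499, SE 0.07, adjusted p = 9.2e-09). Cyp51 (chr5:4081145-4104746, minus strand), the lanosterol demethylase, was at 49.2, 53.4 and 56.5 CPM in tumor and 21.6, 22.3 and 17.6 CPM in spleen. Again no tumor library came near the spleen range (2.64-fold, log2 1.40, SE 0.09, adjusted p = 1.1e-07). Both passed 1.5-fold. Fdft1, squalene synthase, at the branch from prenyl diphosphates into sterols, was at 24.2, 23.9 and 26.3 CPM against 17.3, 18.7 and 16.5 CPM (1.44-fold, adjusted p = 8.0e-05). The gene models of Fdft1 and Ctsb, and those of Cyp51 and Akap9, overlap on opposite strands, and whether reads were counted by strand is not known here. Hsd17b7, a sterol ketoreductase, was among the least abundant enzymes, at 6.42, 6.79 and 6.96 CPM in tumor and 3.83, 3.51 and 4.45 CPM in spleen (1.75-fold, adjusted p = 9.0e-05, and 0.040 in the test for more than 1.5-fold). That second call was lost in 9 of 13 alternatives, 4 of which left out a library, namely replicate 2 or 3 of tumor and replicate 1 or 2 of spleen (adjusted p between 0.0501 and 0.154).

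The remaining late enzymes showed no difference that passed, and approximate intervals are given for their size. Lss, lanosterol synthase, which acts between Sqle and Cyp51, was at 23.4, 27.3 and 23.3 CPM in tumor and 23.1, 24.9 and 19.7 CPM in spleen. These ranges overlapped (log2 0.16, approximate 95% interval -0.04 to 0.35, adjusted p = 0.18). Msmo1, a sterol methyl oxidase, was at 13.3 to 17.6 CPM against 12.9 to 14.2 CPM, and Nsdhl, which removes the oxidized methyl carbon, at 8.60 to 12.1 against 9.30 to 10.5 CPM. Both of these also overlapped (log2 intervals -0.05 to 0.38 and -0.14 to 0.33). Tm7sf2, a sterol reductase, was at 9.03 to 10.7 CPM in tumor and 10.0 to 11.4 CPM in spleen (log2 interval -0.27 to 0.12). It overlaps Vps51 on the same strand.

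The last enzymes of the route lay slightly lower in every tumor library than in any spleen library, without passing. Ebp, the sterol isomerase, was at 47.0, 47.2 and 47.2 CPM in tumor and 50.6, 54.1 and 52.7 CPM in spleen (log2 -0.13, SE 0.06, adjusted p = 0.076). Its call depended on the processing, since it passed with upper-quartile scaling (adjusted p = 0.0176), library totals (adjusted p = 0.0307) and the filter of 1 CPM (adjusted p = 0.0416). Sc5d, the sterol desaturase, was at 21.5 to 24.5 CPM against 25.2 to 27.3 CPM (log2 interval -0.26 to 0.03). Dhcr7, which makes cholesterol in the last reduction of 1 branch, was at 18.9 to 20.3 against 20.6 to 21.2 CPM (log2 interval -0.19 to 0.09).

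**Figure D2:**
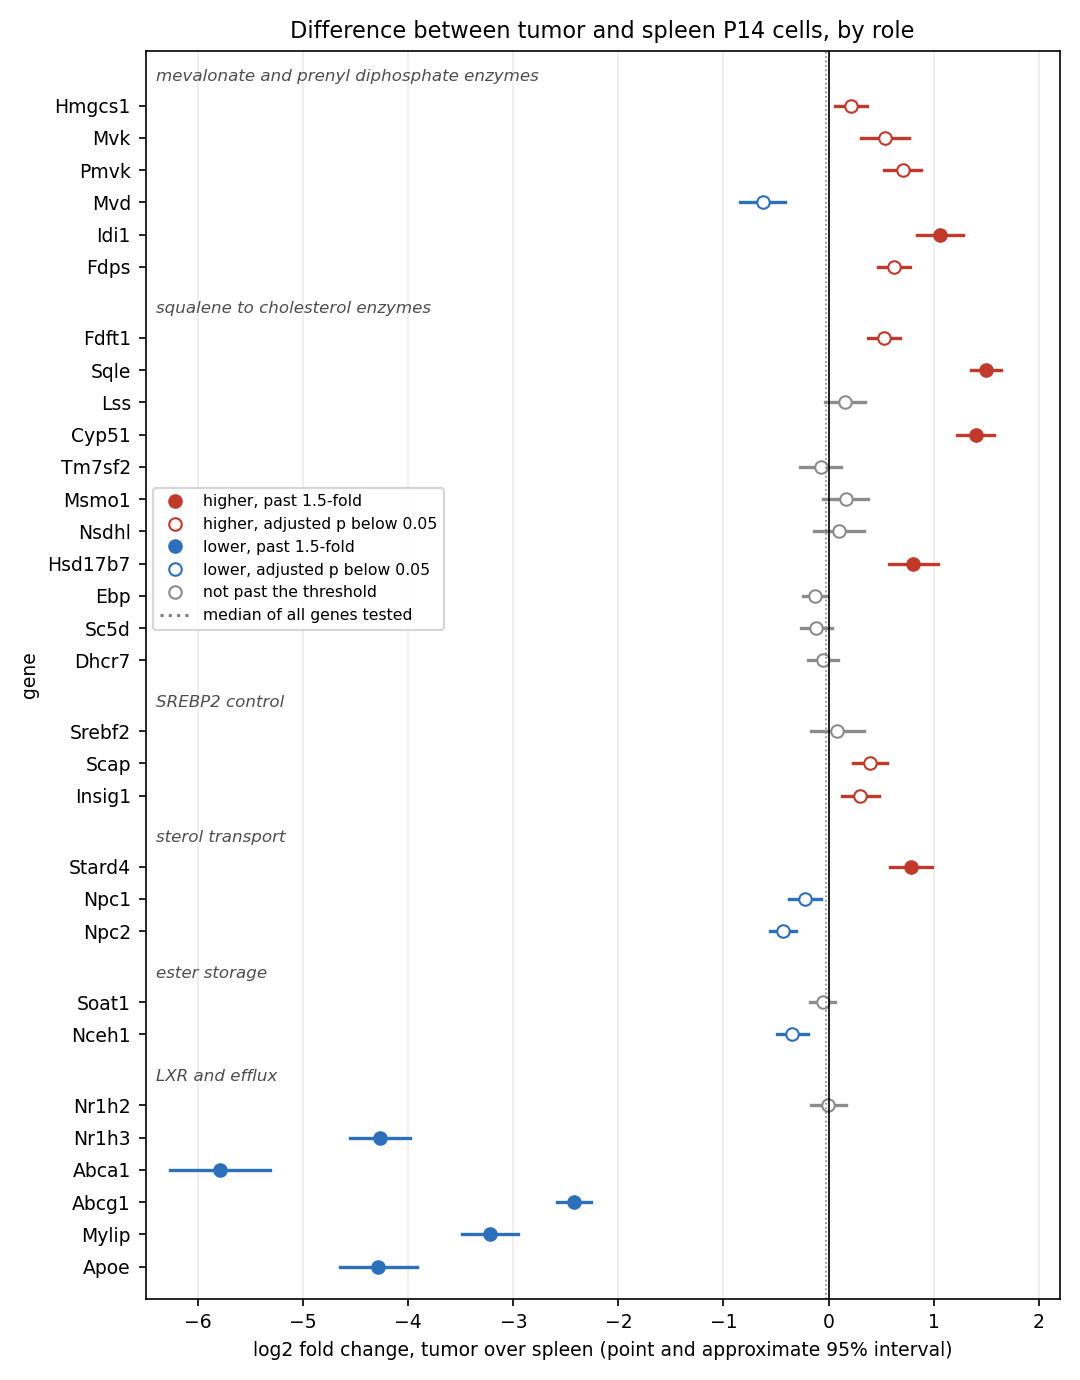
Log2 fold change of each gene, tumor over spleen, with an approximate 95% interval, grouped by role. The intervals use the normal quantile and are somewhat too narrow, so one can leave out 0 for a gene that did not pass. Filled points passed the test for more than 1.5-fold, open coloured points passed an adjusted p below 0.05, grey points did not pass, and the dotted line is the median of all genes tested at -0.02. Synthesis enzymes lie between -0.63 and 1.499, and 5 of the 6 LXR and efflux genes lie between -5.79 and -2.42.

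Of the genes that control SREBP2, 2 of 3 were higher and by little. Srebf2, which encodes SREBP2 itself, was at 317, 298 and 207 CPM in tumor and 266, 264 and 262 CPM in spleen. Tumor libraries 1 and 2 lay above the spleen range and library 3 below it, so that the spread within tumor exceeded the difference (log2 0.08, SE 0.13, adjusted p = 0.57). Without tumor replicate 3 the difference passed (log2 0.27, adjusted p = 8.9e-05), and without tumor replicate 1 it was -0.03. Scap, the escort of SREBP2, was at 165, 150 and 130 CPM against 116, 117 and 113 CPM, with no overlap (1.31-fold, adjusted p = 0.0014). Insig1, a target of SREBP2 that retains the complex, was at 15.2, 14.98 and 14.8 CPM against 11.6, 13.8 and 11.9 CPM, also with no overlap (1.23-fold, adjusted p = 0.010). Without spleen replicate 1 the Insig1 call was lost (adjusted p = 0.0576).

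Genes of sterol transport split. Stard4, a cytosolic sterol carrier and target of SREBP2, was at 25.0, 30.9 and 34.1 CPM in tumor and 18.5, 17.9 and 16.7 CPM in spleen. All tumor values were the higher ones (1.72-fold, log2 0.79, SE 0.10, adjusted p = 2.9e-05, and 0.031 for more than 1.5-fold). The call beyond 1.5-fold was lost in 7 of 13 alternatives, 4 of which left out a library, namely replicate 2 or 3 of tumor or of spleen (adjusted p between 0.0601 and 0.0983). The pair that moves cholesterol out of lysosomes was lower. Npc2, the soluble carrier, was at 91.6, 105 and 101 CPM against 136, 129 and 144 CPM (1.35-fold lower, adjusted p = 0.00010). Npc1, its membrane partner, was at 20.2, 22.3 and 24.6 CPM against 26.8, 26.0 and 27.0 CPM (1.17-fold lower, adjusted p = 0.022). Neither gene overlapped between tissues. The Npc1 call was lost when tumor replicate 1 or 2 or any spleen replicate was left out (adjusted p from 0.0516 to 0.0835), and Npc1 overlaps Rmc1 on the opposite strand. Macrophages carry much Npc2, and their markers were lower in the same libraries (31.6 to 32.5 against 278 to 290 CPM). Their part in these falls was not tested.

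Of the genes of ester storage, Soat1, which esterifies cholesterol for droplets, was at 40.2, 42.4 and 43.3 CPM in tumor and 43.2, 45.1 and 45.1 CPM in spleen. The ranges met at 43.2 to 43.3 CPM, and the difference did not pass (log2 interval -0.17 to 0.06). Nceh1, a hydrolase of cholesteryl ester, was at 15.7, 18.3 and 17.4 CPM against 22.2, 22.3 and 22.1 CPM, without overlap (1.27-fold lower, adjusted p = 0.0018).

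The largest differences of the module were in LXR and its targets. Nr1h2 (which encodes LXR-beta and has a pseudogene, Nr1h2-ps, that could share reads) did not differ beyond its spread, at 141, 126 and 113 CPM in tumor and 123, 134 and 133 CPM in spleen (log2 -0.00, interval -0.17 to 0.16, adjusted p = 0.98). Nr1h3 (chr2:91184061-91202834, mm10, minus strand), which encodes LXR-alpha, was at 1.07, 0.653 and 1.02 CPM in tumor and 17.7, 18.2 and 18.1 CPM in spleen. Every tumor library lay far below every spleen library (19.3-fold lower, log2 -4.27, SE 0.14, adjusted p = 6.1e-10). Per kilobase of exon, LXR-beta transcripts stood at 37.8 CPM in tumor and LXR-alpha transcripts at 0.364 CPM, against 38.7 and 7.16 CPM in spleen.

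Abca1 (chr4:53030787-53159895, minus strand), which exports cholesterol to lipid-poor apolipoprotein, was near the limit of detection in tumor. It had 11 counts over the 3 tumor libraries (0.0823, 0.0784 and 0.138 CPM) and 634 over the spleen libraries (6.59, 5.23 and 5.58 CPM). The fall was 55.5-fold in the fit (log2 -5.79, SE 0.24, adjusted p = 3.2e-09), and the ratio of shares was 58.5 with a 95% exact binomial interval of 32.5 to 118 for counting error. Abcg1 (chr17:31057675-31117988, plus strand), which exports cholesterol to lipoprotein particles, kept a clear level in tumor, at 10.3, 12.4 and 12.8 CPM, and was at 67.9, 62.0 and 63.7 CPM in spleen (5.35-fold lower, log2 -2.42, SE 0.08, adjusted p = 7.4e-10). Per kilobase of exon Abcg1 stood above Abca1 in both tissues (1.62 against 0.00961 CPM in tumor, 8.84 against 0.560 CPM in spleen).

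Mylip (chr13:45389742-45412022, plus strand), an LXR target whose product IDOL marks lipoprotein receptors for degradation, was at 5.29, 5.46 and 3.45 CPM in tumor and 45.9, 45.8 and 43.8 CPM in spleen (9.32-fold lower, log2 -3.22, SE 0.14, adjusted p = 3.5e-09). Apoe (chr7:19696109-19699188, minus strand), a secreted apolipoprotein and LXR target, was at 1.29, 2.35 and 1.05 CPM against 31.1, 32.4 and 30.7 CPM (19.5-fold lower, log2 -4.29, SE 0.19, adjusted p = 4.3e-09). Among the tumor libraries, replicate 2 was the highest for Apoe and replicate 3 the lowest for Mylip, and all 3 lay far below the spleen libraries for both genes.

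Markers of macrophages, which express Nr1h3, Abca1 and Apoe strongly, were lower in the same tumor libraries for 15 of 15 genes with a median log2 fold change of -4.99, and those of B cells for 10 of 10 with a median of -8.33. Over the 15 the log2 fold changes ranged from -7.89 to -0.85. None of the 15 was at 0 in all tumor libraries, but some were near it, such as Mrc1 (3, 0 and 0 counts) and Cd163 (0, 1 and 3 counts). Lyz2, macrophage lysozyme and the highest of them in spleen, fell from 91.1 ± 2.87 to 10.2 ± 0.799 CPM (log2 -3.13), and Csf1r, the receptor for macrophage growth factor and the highest in tumor, from 43.9 ± 3.17 to 11.4 ± 0.37 CPM (log2 -1.92). How far RNA of other cells in the spleen libraries made up the spleen level of each LXR gene was not tested.

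Summed over each group, the 17 synthesis enzymes came to 388, 416 and 427 CPM in tumor and 311, 317 and 310 CPM in spleen (means 411 ± 20.1 and 313 ± 3.77 CPM, SD, n = 3). The 6 LXR and efflux genes came to 159, 147 and 132 CPM in tumor and 292, 298 and 295 CPM in spleen (146 ± 13.8 and 295 ± 2.75 CPM). The ratio of the synthesis sum to the LXR and efflux sum was 2.44, 2.83 and 3.24 to 1 in the tumor libraries. In the spleen libraries it was 1.07, 1.07 and 1.05 to 1. These sums are not corrected for gene length and cover 17 genes against 6, so the ratios do not count transcripts. Most of the tumor sum of the second group was Nr1h2. Without it the ratios were 21.6, 19.9 and 23.2 to 1 in tumor and 1.84, 1.94 and 1.92 to 1 in spleen. These sums describe the listed genes and carry no test.

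**Figure D3:**
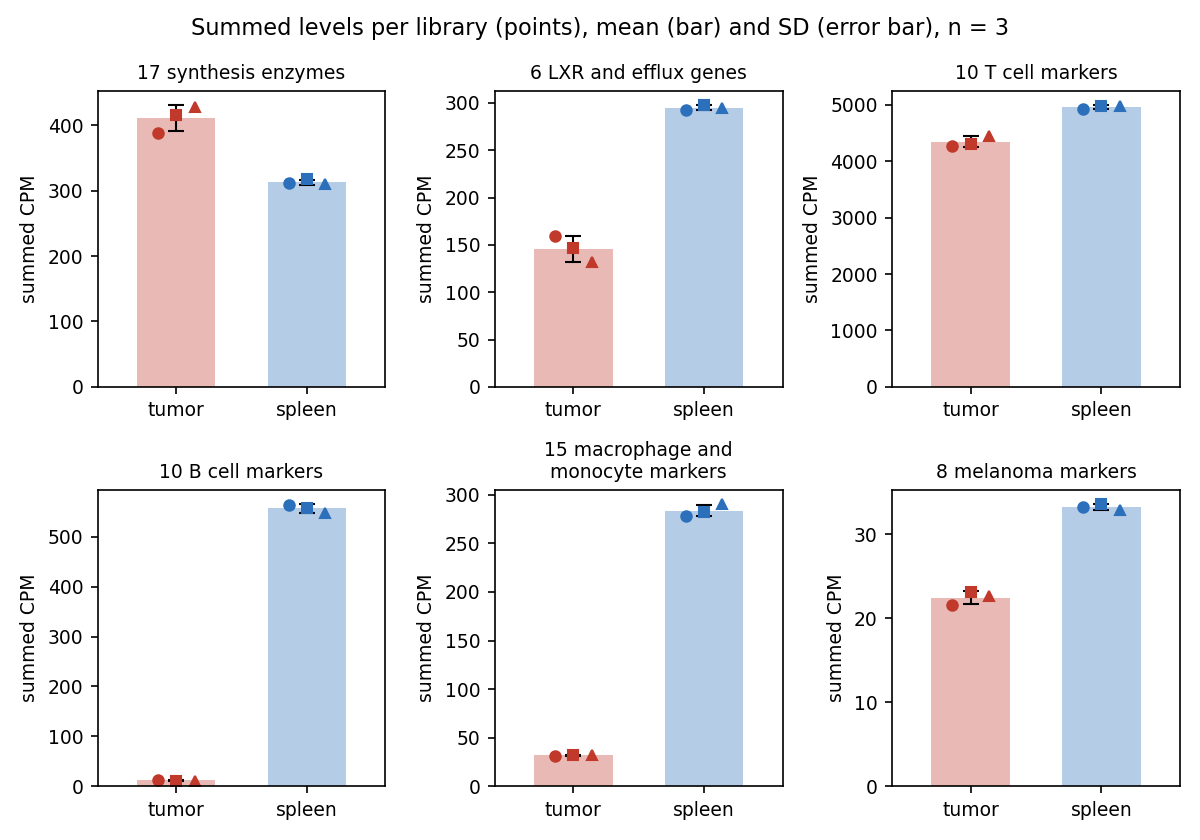
Summed CPM of the synthesis enzymes, of the LXR and efflux genes and of marker genes of T cells, B cells, macrophages and melanoma in each library (points), with mean (bar) and SD (error bar), n = 3 per tissue. Synthesis sums are 388 to 427 CPM in tumor against 310 to 317 CPM in spleen, LXR and efflux sums 132 to 159 against 292 to 298 CPM, and macrophage marker sums 31.6 to 32.5 against 278 to 290 CPM.

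Among the tumor libraries, replicate 1 held the highest value for 1 of the 17 synthesis enzymes, replicate 2 for 6 and replicate 3 for 10. Over all genes tested the shares were 32.6%, 26.1% and 41.3%. The lowest value was in replicate 1 for 7 of the 17, in replicate 2 for 5 and in replicate 3 for 5. For all genes these shares were 40.6%, 24.1% and 35.3%. Idi1, Cyp51 and Stard4 were lowest in tumor replicate 1 and highest in replicate 3, while Srebf2 and Scap were highest in replicate 1 and lowest in replicate 3. Spleen libraries hardly varied, with synthesis sums of 310 to 317 CPM.

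Compared per kilobase of exon, Nr1h2 and Srebf2 had the highest levels of the 31 genes in both tissues (in tumor 37.8 and 38.1 CPM, in spleen 38.7 and 36.8 CPM), and Abca1 the lowest. Levels of these leading genes differed by less than the spread of the tumor libraries. Of the enzymes, Ebp led in both tissues (20.4 and 22.7 CPM), followed in tumor by Cyp51 (12.0 CPM), which ranked 14 of 31 in spleen at 4.64 CPM and 6 of 31 in tumor. Sqle ranked 24 in spleen and 10 in tumor. Apoe ranked 6 and Mylip 7 in spleen, and 29 and 27 in tumor.

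**Figure D4:**
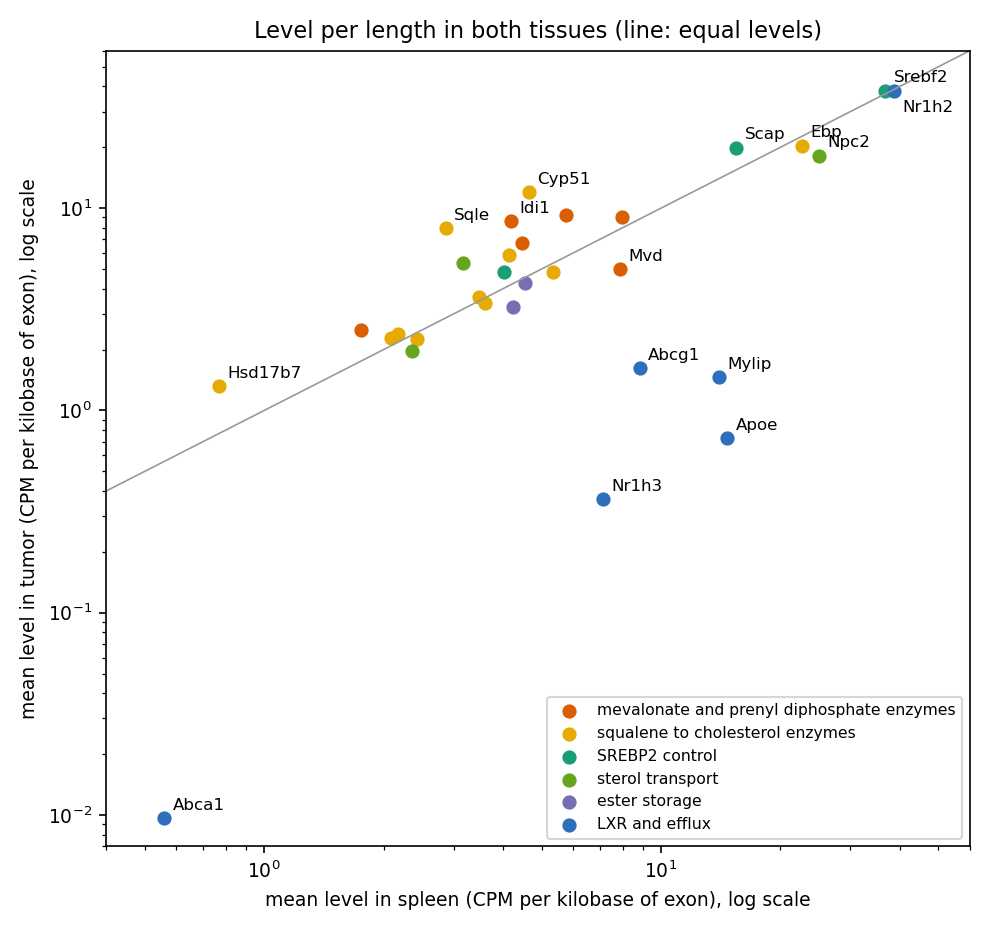
Mean level per kilobase of exon in tumor against spleen, both on log axes in CPM, with colours for roles and a line of equal levels. Sqle, Cyp51 and Idi1 lie above the line, Nr1h2 and Srebf2 lie close to it, and the 5 lower LXR and efflux genes lie below it, with Abca1 at 0.00961 CPM in tumor.

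Further genes of the same pathways are given by role, and their counts stand beside 34.8% higher and 35.9% lower among all genes tested. Of 6 other genes of sterol synthesis, 3 were higher, 1 lower and 2 did not pass, while their summed level was lower in tumor (673 ± 23.2 against 731 ± 15.7 CPM), most of it from Lbr. Tmem97, a sterol-responsive gene of the endoplasmic reticulum, was at 32.2, 35.05 and 38.4 CPM in tumor and 10.6, 9.32 and 9.80 CPM in spleen (3.62-fold, adjusted p = 6.6e-09). Lbr, a nuclear envelope protein with sterol reductase activity, was at 360 to 402 CPM against 526 to 548 CPM (1.38-fold lower, adjusted p = 1.3e-05). Of 8 other genes of SREBP control, 2 were higher, 4 lower and 2 did not pass (median log2 -0.19), beside 2 higher and 0 lower of the 3 members of that role (median 0.30). Erlin1, which acts in the regulated breakdown of sterol proteins, was 1.48-fold higher (adjusted p = 0.00016). The lower ones were Rnf139 (1.64-fold lower), Mbtps2 (1.36-fold lower), Mbtps1 (1.21-fold lower), the latter pair being the proteases that free SREBP, and Srebf1, which encodes SREBP1 (1.16-fold lower, adjusted p = 0.047). None of these 8 passed 1.5-fold.

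Of 7 other LXR partners and targets, 6 were lower, 0 were higher and Lpcat3 did not pass (adjusted p = 0.11). Arl4c, a small GTPase induced by LXR, was at 14.6, 16.8 and 16.6 CPM in tumor and 105, 104 and 99.3 CPM in spleen (6.30-fold lower, adjusted p = 7.7e-11). Pltp, a phospholipid transfer protein, was at 5.84, 7.11 and 6.16 CPM against 24.6, 25.3 and 27.1 CPM (3.94-fold lower, adjusted p = 8.3e-09). Rxra, a partner receptor of LXR named here after its values were seen, was at 9.21, 7.03 and 5.80 CPM against 30.8, 31.05 and 29.7 CPM (4.06-fold lower, adjusted p = 1.6e-07). Rxrb, a partner receptor likewise named after its values were seen, was far more abundant and fell less. Its mean was 90.9 CPM for the tumor libraries against 124 CPM for the spleen libraries (1.34-fold lower, adjusted p = 0.00032). Rxrb did not pass 1.5-fold. The median log2 fold change of these 7 genes was -1.19. Macrophage and B cell markers were lower in the same libraries, as given above.

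Of 11 other genes of sterol uptake and transport, 10 were tested, of which 2 were higher and 5 lower. Among all genes tested the shares were 34.8% and 35.9%. Gramd1b, which carries cholesterol from the plasma membrane to the endoplasmic reticulum, was at 85.2 to 94.3 CPM in tumor and 46.6 to 49.0 CPM in spleen (1.92-fold, adjusted p = 1.8e-07), while its relative Gramd1a was at 209 to 249 against 437 to 452 CPM (1.87-fold lower, adjusted p = 5.7e-07). Scarb1, the receptor for high-density lipoprotein, was at 40.0 to 43.0 against 22.0 to 23.8 CPM (1.84-fold, adjusted p = 4.6e-07), and Lipa, the lysosomal ester hydrolase, at 26.9 to 29.0 against 41.4 to 43.5 CPM (1.49-fold lower, adjusted p = 8.8e-06).

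The branch that uses prenyl diphosphates for proteins, dolichol and ubiquinone was higher for 5 of 11 genes and lower for 3. All genes tested gave 34.8% higher and 35.9% lower, so these counts alone do not set the branch apart. Rabggtb, a subunit of the enzyme that prenylates Rab proteins, was at 23.7, 24.3 and 28.5 CPM against 11.0, 9.14 and 9.40 CPM (2.64-fold, adjusted p = 2.1e-07), while the other subunit, Rabggta, was 1.34-fold lower (adjusted p = 0.00024). Coq2, of ubiquinone synthesis, was 1.48-fold higher, and the farnesyltransferase subunit gene Fnta was 1.35-fold lower. Of 5 oxysterol genes, 3 were tested and all 3 were lower. Gpr183, the receptor for a dihydroxylated oxysterol, was at 17.3 to 19.2 CPM against 27.2 to 28.4 CPM (1.52-fold lower), and Hsd3b7, a bile acid enzyme, was 2.99-fold lower at 0.496 and 1.51 CPM. Cyp27a1, which makes an oxysterol that activates LXR, had 3 counts in tumor, all in replicate 3, and 221 in spleen, a ratio of 74.8 with a 95% exact binomial interval of 25.2 to 365 for counting error. Ch25h was near 0 in both tissues and Cyp7b1 had 0 counts in all libraries, so neither was tested.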

How the data were processed

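RNA was measured in 3 tumor and 3 spleen libraries, grouped by title. Per the labels' protocols, cDNA was made with a low-input kit, libraries with a stranded kit, and single reads of 50 bp were sequenced. Tools in the submitters' processing notes are bcl2fastq 2.20.0.422, STAR 2.3 and featureCounts, with build mm10. The annotation, the use of strand and the treatment of multiply mapped reads are not stated there. The deposited values are whole-number counts per gene that the authors had not normalized. All pairs of libraries differed by more than counting noise. The chi-square per degree of freedom was 9.06 to 33.2 within tumor and 2.19 to 3.48 within spleen. Tumor libraries thus varied more, while the fit below takes a common spread per gene for both tissues.

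Symbols and exon lengths came from GENCODE M21 and a table of gene names (55154 of 55335 identifiers matched). Differences were fitted by edgeR 4.0.16 (R 4.3.3), with TMM scaling, filterByExpr (minimum count 10, minimum total 15), tissue as the factor and the quasi-likelihood F-test. P-values were adjusted by Benjamini-Hochberg over 19783 genes, with a threshold of 0.05. The test for more than 1.5-fold was glmTreat on that fit. An SE is the size of the log2 value over the root of its F statistic. The approximate intervals use this SE with the normal quantile, so with few libraries they are somewhat too narrow. The procedure was tested on simulated data. Alternatives were DESeq2 1.42.0, limma-voom (limma 3.58.1), other scalings and filters, a replicate block and leaving out each library.

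The members and lists were chosen with earlier results of these data known, as were the promoters shown. All 31 members could be named. From every other pathway list came the 2 genes of smallest p per direction and those behind counts of at most 5, and from each marker list the highest in each tissue and those at 0. Some genes that this rule picks are not reported here.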

Additional observations from a re-analysis of the deposited data

How the results depend on the processing

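Of 434 values of single members over 14 alternatives, 410 kept direction and call, and 18 of the 21 called members kept their call in all of them. Hmgcs1, Insig1 and Npc1 did not, as given above. The count of 5 members higher by more than 1.5-fold was 3 with library totals, limma-voom or upper-quartile scaling and 3 to 5 on leaving out 1 library, because Hsd17b7 (adjusted p from 0.0172 to 0.154) and Stard4 (adjusted p from 0.00070 to 0.146) lost that call in 9 and 7 of 13 alternatives. It was 3 without tumor replicate 2 or 3 or spleen replicate 2. Synthesis enzymes lower were 2 in place of 1 with the filter of 1 CPM, library totals or upper-quartile scaling, through Ebp. The median of the LXR and efflux genes was -3.75 to -3.54 on leaving out 1 library, with 5 of 6 lower in each alternative. Members that did not pass changed sign: Nr1h2 was 0.0127 without the filter and -0.0843 to 0.0907 on leaving out 1 library, Srebf2 -0.0315 to 0.27, Tm7sf2 -0.13 to 0.00625, Nsdhl -0.00702 to 0.22 and Dhcr7 -0.0655 to 0.00142, all on the log2 scale.

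Equal replicate numbers are not said to mark 1 mouse, and deviations of same-numbered libraries correlated at -0.0832, 0.0693 and 0.0385. With a replicate block, 12 members were higher and 9 lower, the counts of the fit without it. Depth limits only members near 0 in tumor, such as Abca1 with 11 counts.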
